A study of Paeonia lactiflora with 9 samples.

Results

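In seeds of the herbaceous peony cultivar ‘Hangshao’ (Paeonia lactiflora), 27 of the 125685 unigenes were nearly silent at 30 days after flowering (DAF) and abundant at 90 DAF. They were chosen by their values: below 1 FPKM in all 3 libraries at 30 DAF, at least 100 FPKM in all 3 libraries at 90 DAF, and a mean over the 9 libraries below 700 FPKM. Unigenes that the study lists for fatty acid biosynthesis, elongation, desaturation, TAG assembly and lipid storage were to be left out, and none of the 27 was among them. FPKM counts the fragments on a transcript relative to its length and to all fragments mapped in that library, and a unigene is a transcript of the assembly that the authors built without a reference genome. The levels at 30 and 90 DAF are therefore the rule itself and are given as a description, and what the seeds held at 60 DAF was used by the rule only through the mean.

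The libraries came from whole seeds at 30, 60 and 90 DAF, 3 at each stage, with no treatment and no mutant. By the methods of the study the seeds were collected from the same plant, so the spread between the 3 libraries of a stage need not cover the spread between plants. All 27 unigenes passed the filter of the test (at least 0.5 FPKM in at least 3 of 9 libraries), as their 90 DAF values ensured. In bulk seeds, more cells that use a transcript and more RNA per cell cannot be told apart.

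A seed that matures turns from growth of its tissues to storage, to preparation for drying and to hardening and colouring of its coat. Oil is packed into droplets coated by oleosin and caleosin, phenylpropanoids and flavonoids are laid down mainly in the coat, and jasmonates, hormones made from the linolenic acid of membranes, act in defence and development. Transcripts that appear late in a seed may serve any of these programmes, and a KEGG pathway name on a unigene records similarity of sequence, not activity of an enzyme.

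The labelled tissue was checked by its oil body transcripts. The 6 oleosin unigenes of the study's lipid table summed to 759 to 914 FPKM at 30 DAF, 4811 to 8724 FPKM at 60 DAF and 8056 to 12839 FPKM at 90 DAF. The 4 caleosin unigenes summed to 399 to 523, 647 to 766 and 1045 to 1515 FPKM at the same stages. Of 6 unigenes assigned to photosynthesis, a sign of green tissue, the summed level was 65.6 to 80.0, 19.6 to 27.3 and 19.9 to 23.3 FPKM at 30, 60 and 90 DAF. These 6 came from the study's list of genes differing between 30 and 60 DAF, so a change between those stages was built in. CL7900.Contig2 alone averaged 61.9, 21.8 and 19.9 FPKM at the 3 stages. The oleosin and caleosin unigenes were also listed by the study as differing between stages of these libraries. Relative depths of the libraries, read from the step between low FPKM values, were 0.871 to 1.07 of that of replicate 1 at 30 DAF. Across unigenes, which are not independent replicates, pairs of libraries correlated with Pearson's r of 0.814 to 0.949 within the stages, lowest at 90 DAF.

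Together the 27 unigenes were a trace of the seed's transcripts at 30 DAF and a visible part of them at 90 DAF. Their summed level was 7.33, 5.52 and 4.21 FPKM in the libraries at 30 DAF, 683, 817 and 299 FPKM at 60 DAF, and 8547, 9797 and 11273 FPKM at 90 DAF. As a percentage of the total FPKM of a library, the sum (mean ± SD, n = 3 each) averaged 0.000841 ± 0.000235 in 30 DAF seeds, 0.0869 ± 0.0369 in 60 DAF seeds and 1.42 ± 0.189 in 90 DAF seeds. At 60 DAF the summed level of replicate 3 was below that of the other 2 libraries.

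**Figure D1:**
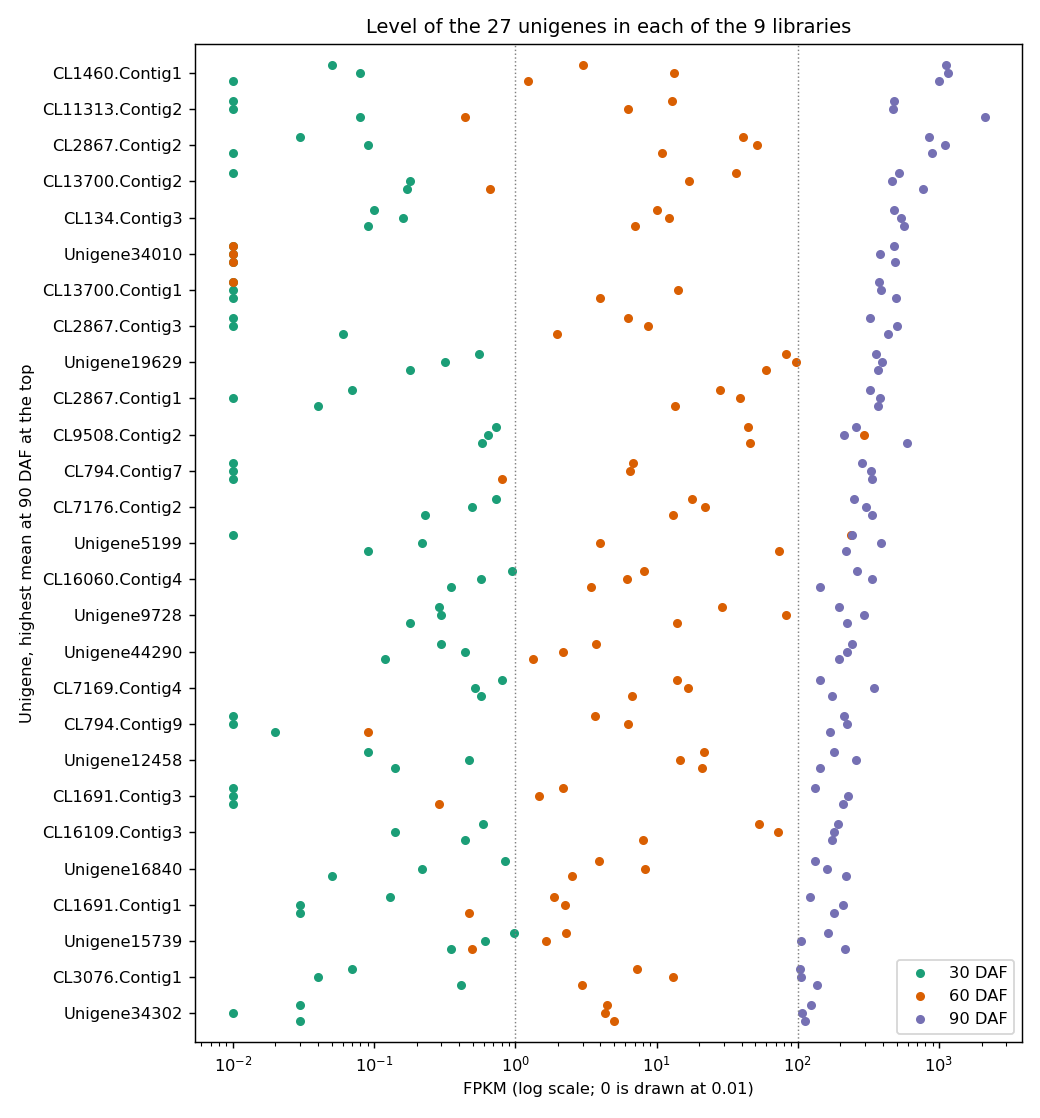
FPKM of each of the 27 unigenes in each of the 9 libraries, on a log axis with 0 drawn at 0.01, with points for 30, 60 and 90 DAF and dotted lines at the limits of 1 and 100 FPKM. The 60 DAF points lie between the stages for most unigenes, and those of Unigene34010 lie at 0.

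The limits of 1 and 100 FPKM cut through a continuum. Unigene15739 came closest to the limit at 30 DAF from inside, with up to 0.98 FPKM, and CL7765.Contig2, with at least 178 FPKM at 90 DAF and up to 1.18 FPKM at 30 DAF, was just outside. At 90 DAF the lowest library of CL3076.Contig1 had 103 FPKM, and that of CL794.Contig8 had 90.5 FPKM, just outside. CL1460.Contig1 had the highest mean over the 9 libraries, 366 FPKM, and CL10042.Contig1, with a mean of 755 FPKM, was the only unigene removed by the limit on the mean.

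Of the 27 unigenes, 18 are contigs of 13 clusters and 9 are single unigenes, so that they stand for 22 clusters or single unigenes. A cluster holds contigs of similar sequence, between which RSEM, the program that estimated the FPKM, can divide the same reads. Contigs were 66.7% of the 27 and 43.7% of all unigenes. Cluster CL2867 gave 3 of them, and CL13700, CL1691 and CL794 gave 2 each. Members of a cluster are not independent observations.

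The tables of the study name a KEGG pathway for 12 of the 27, and an enzyme for 2 of these. Its pathway lists hold DEGs (differentially expressed genes) of Group I, which compares 60 with 30 DAF, whole and those of Groups II and III, which compare 90 with 60 DAF and 90 with 30 DAF, only in part as used here, so the absence of a pathway for the other 15 says little about them. The 12 fall into flavonoid and phenylpropanoid biosynthesis (5 contigs of 2 clusters), arachidonic and linoleic acid metabolism, alpha-linolenic acid metabolism, central carbon metabolism, glutathione metabolism, DNA replication and repair, endocytosis and the phagosome.

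At 60 DAF most of the 27 were detected at a low level. At least 1 FPKM was found in all 3 libraries for 18 of them, in 1 or 2 of the libraries for 8, and in none for 1. The 18 are 66.7% of the 27, beside 41.1% of all tested unigenes. At least 10 FPKM was found in all 3 libraries for 7, and none had 100 FPKM in all 3. For the limits of 10 and 100 FPKM no share over all unigenes was taken, so these counts are a description. The mean at 60 DAF was 2.85% of the mean at 90 DAF in the median over the 27, with a range of 0% to 37.4%. It lay below 1% for 6 unigenes, from 1% to under 5% for 11, from 5% to under 10% for 5, from 10% to under 25% for 3 and at 25% or more for 2. For the 7529 other unigenes that passed the test as higher at 90 than at 30 DAF the median of this share was 24.1%, and it was 15.0% for the 3539 of these that also lay below 1 FPKM in all 30 DAF libraries. The 59 unigenes that met the limit at 30 DAF and whose lowest 90 DAF library had 20 to under 100 FPKM had a median share of 5.77%, nearer to that of the 27. Of these 59, 40.7% had at least 1 FPKM in all 3 libraries at 60 DAF. Another 636 unigenes had at least 100 FPKM in all 90 DAF libraries but at least 1 FPKM in a 30 DAF library. Their median share was 44.9%, and 99.7% of them had at least 1 FPKM in all 60 DAF libraries. The 27 were chosen to be low at 30 DAF and high at 90 DAF, which bears on their share, and no test was made of it.

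**Figure D2:**
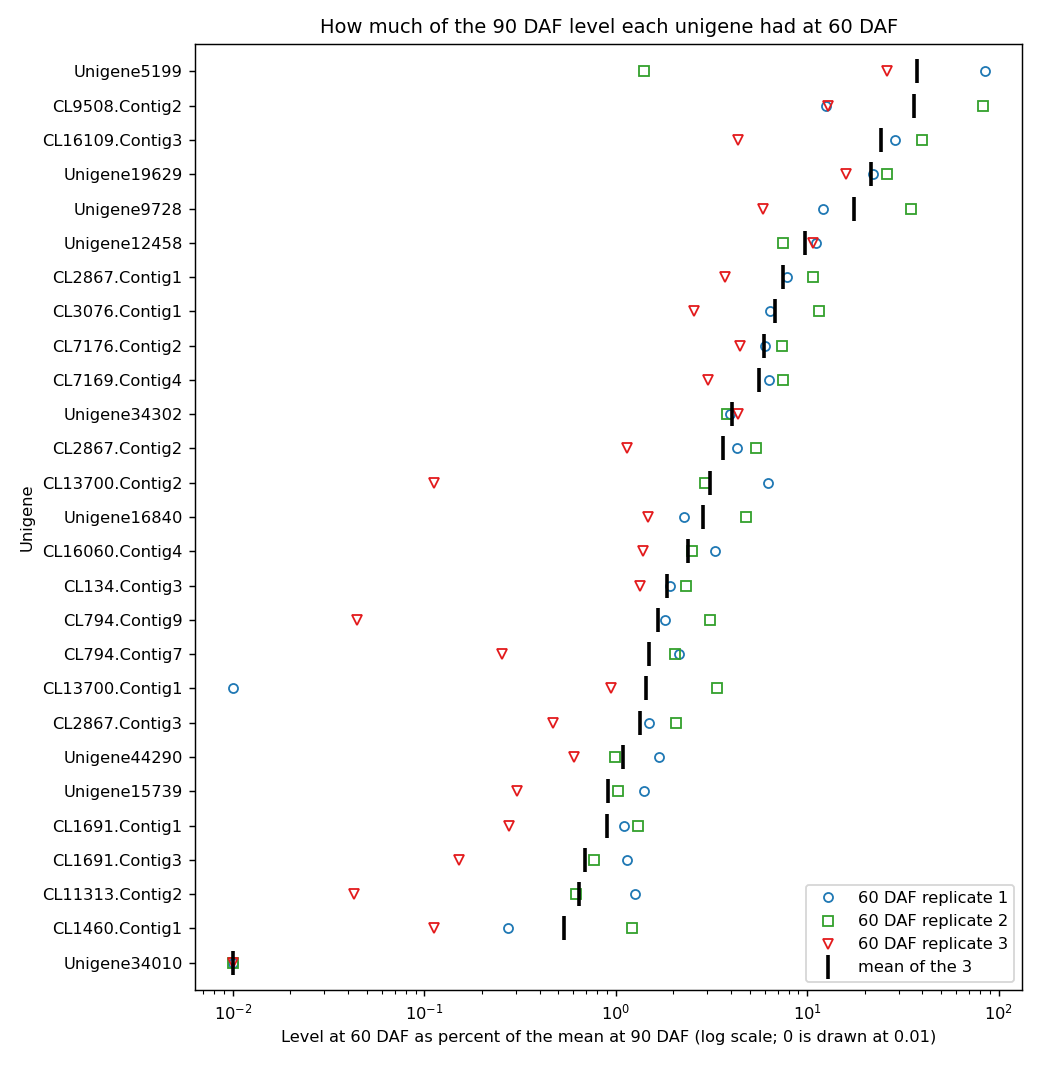
Level in each 60 DAF library as a percentage of the mean at 90 DAF, on a log axis with 0 drawn at 0.01, for the 27 unigenes ordered by the mean of the 3 libraries, which the black bars mark. The bars run from 0% for Unigene34010 to 37.4% for Unigene5199, and the triangles of replicate 3 lie left of the other 2 symbols in 21 of 27 unigenes.

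The stages were compared with limma on log2(FPKM + 0.5), fitted to all 55192 unigenes that passed the filter, and a unigene passed the test at a fold change of at least 2 and an adjusted p of at most 0.05 (Benjamini-Hochberg over all of them). In Group I, 22 of the 27 were higher at 60 DAF and none was lower, where 1.72% of all tested unigenes were higher and 6.33% lower. In Group II, 25 of the 27 were higher at 90 DAF and none was lower, where 18.2% of all tested unigenes were higher and 9.41% lower. At an unadjusted p under 0.05 none of the 27 was lower in Group I or in Group II. The rule disfavoured such falls in advance, with little room for a level below that at 30 DAF, so this is a description. In Group III, the contrast of the rule, all 27 were higher, beside 13.7% of all tested, and nothing is read from that count. Since the low values at 30 DAF and the high values at 90 DAF were chosen, Groups I and II each share 3 chosen libraries with the rule, and they share the 60 DAF libraries with each other. The median log2 difference of all tested unigenes was -0.31 in Group I and 0.36 in Group II, and with median-of-ratios scaling it was -0.02 and -0.07, while 22 and 24 of the 27 passed. That scaling also changed the background, to 1565 unigenes higher and 1940 lower in Group I, against 947 and 3496 without it, and to 3908 higher and 7851 lower in Group II, against 10034 and 5196.

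The 30 and 90 DAF limits largely set how often the ranges of the stages were apart, so the counts that follow are a description. Each 60 DAF library lay above each 30 DAF library in 24 of the 27, and in 5.84% of all tested unigenes. Each 90 DAF library lay above each 60 DAF library in 25 of the 27, and in 32.5% of all tested. With 3 libraries against 3, an exact two-sided permutation test of a single unigene cannot go below p = 0.1.

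**Figure D3:**
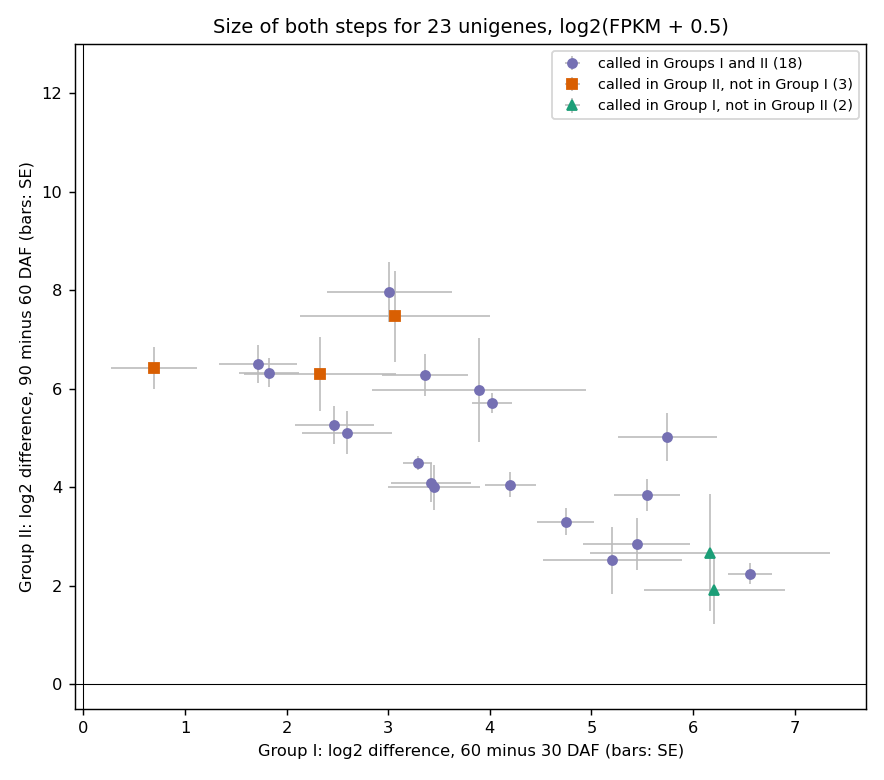
Log2 difference in Group I (60 minus 30 DAF, horizontal) and Group II (90 minus 60 DAF, vertical) on log2(FPKM + 0.5), with bars for the standard error, for 23 unigenes; the 4 listed at 0 in all 30 DAF libraries are not drawn. The test was passed in both groups by 18 of the 23 (circles), in Group II alone by 3 (squares) and in Group I alone by 2 (triangles), and the axes share the 60 DAF libraries.

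The flavonoid contigs of 2 clusters differed in their level at 60 DAF. Cluster CL2867 consists of 3 contigs, all among the 27 and all assigned to flavonoid biosynthesis and to flavone and flavonol biosynthesis, the pathways of coat pigments and tannin precursors. Its most abundant contig, CL2867.Contig2, had 0.03, 0.09 and 0 FPKM at 30 DAF, 40.8, 51.2 and 10.9 FPKM at 60 DAF, and 845, 1108 and 897 FPKM at 90 DAF. CL2867.Contig1 had 0.07, 0 and 0.04 FPKM at 30 DAF, 28.2, 38.8 and 13.4 FPKM at 60 DAF, and 327, 382 and 371 FPKM at 90 DAF. CL2867.Contig3 had 0, 0 and 0.06 FPKM, then 6.23, 8.63 and 1.98 FPKM, then 323, 500 and 434 FPKM at the same stages. The stages did not overlap in any of the 3 contigs. Contig2 and Contig1 rose by 5.75 ± 0.49 and 5.55 ± 0.33 on the log2 scale in Group I (± SE), more than in Group II, where they rose by 5.03 ± 0.49 and 3.84 ± 0.33; the difference between the 2 steps was not tested. Contig3 rose by 3.36 ± 0.43 in Group I and 6.27 ± 0.43 in Group II. Its means were 0.02, 5.61 and 419 FPKM at 30, 60 and 90 DAF. The added 0.5 therefore shrinks its Group I step, and which of its 2 steps was larger is not read from these values. As a whole the cluster had 3.86% of its 90 DAF level at 60 DAF.

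The other cluster of this kind, CL1691, was lower at 60 DAF, with a sum of 5.73, 6.62 and 3.14 FPKM. Its 4 contigs are assigned to phenylpropanoid, flavonoid and stilbenoid biosynthesis, which supply lignin and flavonoid precursors, and 2 of them are among the 27. CL1691.Contig3 was listed at 0 in all 3 libraries at 30 DAF and had 2.18, 1.46 and 0.29 FPKM at 60 DAF, and 133, 227 and 210 FPKM at 90 DAF. CL1691.Contig1 had 0.13, 0.03 and 0.03 FPKM, then 1.88, 2.23 and 0.47 FPKM, then 123, 208 and 181 FPKM. Both had under 1% of their 90 DAF level at 60 DAF. Both passed in Group I, Contig1 with a rise of 1.72 ± 0.38, and each lost that call when any 1 library at 30 DAF or replicate 1 or 2 at 60 DAF was left out (adjusted p from 0.0605 to 0.0879 for Contig1 and from 0.0875 to 0.114 for Contig3). In Group II they rose by 6.50 ± 0.38 and 6.85 ± 0.42. The 2 other contigs of the cluster, CL1691.Contig2 and CL1691.Contig4, had 48.1 to 93.7 and 53.8 to 110 FPKM at 90 DAF and at most 0.26 and 0.19 FPKM at 30 DAF, so that the whole cluster followed the same course.

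CL1460.Contig1 was the most abundant of the 27 at 90 DAF and among the least advanced at 60 DAF. It is assigned to pyruvate metabolism and to glyoxylate and dicarboxylate metabolism, pathways of central carbon that connect the breakdown of fats and sugars with organic acids. Its level was 0.05, 0.08 and 0 FPKM at 30 DAF, 3.01, 13.3 and 1.23 FPKM at 60 DAF, and 1122, 1163 and 996 FPKM at 90 DAF. The mean at 60 DAF was 0.534% of that at 90 DAF, the lowest share except that of Unigene34010. It rose by 3.01 ± 0.61 on the log2 scale in Group I and by 7.96 ± 0.61 in Group II, and the call of Group I was lost when any 1 library at 30 DAF was left out (adjusted p 0.0548 to 0.0631). It held nearly all of its cluster, as CL1460.Contig2 averaged 0.25 FPKM at 90 DAF and 0.317 FPKM at 30 DAF.

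CL11313.Contig2 is annotated as cytochrome P450 family 2 subfamily J, an orthology group named for enzymes of animals that oxidise arachidonic acid. It had 0, 0 and 0.08 FPKM at 30 DAF, 12.9, 6.28 and 0.44 FPKM at 60 DAF, and 476, 471 and 2109 FPKM at 90 DAF. Replicate 3 was the lowest library at 60 DAF and the highest at 90 DAF. Its cluster mate CL11313.Contig1, with the same annotation, had 466, 697 and 3.34 FPKM at 90 DAF, low in the library where Contig2 was high. The sum of the 3 contigs of the cluster was at most 0.08 FPKM at 30 DAF, 12.9, 7.31 and 0.44 FPKM at 60 DAF and 958, 1194 and 2124 FPKM at 90 DAF, so at 90 DAF the sum varied less between libraries than either contig. In Group I Contig2 did not pass the test (log2 difference 3.07 ± 0.93, adjusted p = 0.0692). It passed without replicate 3 at 60 DAF (4.18, adjusted p = 0.00988) and without replicate 3 at 90 DAF (adjusted p = 0.0472). It also passed with 0.1 added before the logarithm (4.87, adjusted p = 0.0273), and the cluster sum passed (3.06, adjusted p = 0.0291). In Group II Contig2 rose by 7.47 ± 0.93.

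The orthology group of CL11313.Contig2 holds 12 unigenes in the study's lipid table, which was drawn up from DEGs of these same libraries. In Group II, 10 of the 12 were higher at 90 DAF and 1 was lower, beside 18.2% and 9.41% of all tested unigenes, with a median log2 difference of 2.69 beside 0.36 over all tested. In Group I none passed in either direction by limma (3 higher and 1 lower at an unadjusted p under 0.05), beside 1.72% higher and 6.33% lower of all tested. In Group III 11 were higher and 1 was lower, beside 13.7% and 16.5%. Median-of-ratios scaling left 8 higher and 1 lower in Group II, beside 3908 higher and 7851 lower of the 53245 unigenes then tested. In Group I that scaling gave 1 higher, beside 1565 of all tested. Whole-cluster sums gave 1 higher and 1 lower of 9 in Group I, beside 772 and 2750 of 34193. In Group II they gave 7 higher and 1 lower, beside 7346 and 3653. The summed level of the 12 was 27.6 to 34.0 FPKM at 30 DAF, 33.7 to 60.6 FPKM at 60 DAF and 1171 to 2408 FPKM at 90 DAF. Cluster CL11313 gave most of that sum at 90 DAF, but at most 0.08 FPKM of it at 30 DAF and 12.9 FPKM at 60 DAF. The next most abundant, CL874.Contig1, was already present at 30 DAF with 12.9, 10.1 and 11.4 FPKM, and had 21.7, 18.6 and 14.4 FPKM at 60 DAF and 70.6, 50.0 and 60.0 FPKM at 90 DAF.

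CL16109.Contig3 is annotated as jasmonate O-methyltransferase, which in plants turns jasmonic acid into its volatile methyl ester. It had 0.59, 0.14 and 0.44 FPKM at 30 DAF, 52.7, 72.6 and 7.99 FPKM at 60 DAF, and 193, 180 and 175 FPKM at 90 DAF. The 90 DAF libraries lay within a narrow range, and replicate 3 at 60 DAF lay far below the other 2. The unigene reached 24.3% of its 90 DAF level at 60 DAF, rose by 5.21 ± 0.69 on the log2 scale in Group I and rose by 2.51 ± 0.69 in Group II. The Group II call was lost with median-of-ratios scaling (1.89, adjusted p = 0.0695) and in a fit of only the 2 stages (adjusted p = 0.0545).

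Other contigs of the same cluster ran the other way. CL16109.Contig4 had 35.9, 43.5 and 35.0 FPKM at 30 DAF, 11.3, 12.9 and 12.1 FPKM at 60 DAF, and was listed at 0 in all 3 libraries at 90 DAF. CL16109.Contig5 had 25.4, 29.6 and 23.7 FPKM at 30 DAF, 7.79, 8.40 and 7.74 FPKM at 60 DAF, and was also listed at 0 at 90 DAF. Both fell in Group II. The sum of the 5 contigs, all with the same annotation, was 69.6, 78.2 and 63.7 FPKM at 30 DAF, 93.4, 112 and 43.9 FPKM at 60 DAF, and 195, 183 and 178 FPKM at 90 DAF. On the sum the Group I difference was 0.13 on the log2 scale (adjusted p = 0.798). Contigs with this annotation were thus found at all stages, with a different contig leading at 30 and at 90 DAF.

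Of the 7 jasmonate O-methyltransferase unigenes of the lipid table, CL16109.Contig3 was the only one that rose in Group II (none did with median-of-ratios scaling), and the other 6 fell, beside 18.2% of all tested unigenes higher and 9.41% lower. In Group I 2 rose and 2 fell, beside 1.72% and 6.33%, and in Group III 1 rose and 4 fell, beside 13.7% and 16.5%. These 7 are contigs of only 2 clusters, CL16109 and CL8527, so the counts are not of independent genes. On whole-cluster sums 1 rose and 1 fell in Group II, and the same in Group III. The enzymes that make jasmonic acid are in the same table with 35 unigenes, from lipoxygenase, which starts the pathway, through allene oxide synthase and cyclase and 12-oxophytodienoate reductase to the enzymes of the side chain. Of the 29 tested, 3 were higher and 17 were lower at 90 DAF in Group II, beside 18.2% and 9.41% of all tested, with a median of -1.35 on the log2 scale beside 0.36. With median-of-ratios scaling none was higher and 21 were lower, beside 3908 and 7851 of 53245. In Group I 2 of the 29 were higher and 2 were lower, beside 1.72% and 6.33%. Several of the 29 share a cluster. On whole-cluster sums 4 of 22 were higher and 9 lower in Group II, beside 7346 and 3653 of 34193. The median was then -1.12. The summed level of the 35 was 260, 980 and 333 FPKM at 30 DAF, 522, 357 and 1370 FPKM at 60 DAF, and 323, 255 and 272 FPKM at 90 DAF. At 90 DAF the most abundant was Unigene23060, an acyl-CoA oxidase, with 178, 106.5 and 138 FPKM. It was among the 3 that were higher in Group II, with a rise of 1.13 ± 0.18. Replicate 2 at 30 DAF and replicate 3 at 60 DAF stood above the rest, through lipoxygenase, whose 12 unigenes summed to 759 and 1198 FPKM in these 2 libraries. The most abundant of them, Unigene18961 and Unigene5976, named after their values were seen, did not pass in Group II (adjusted p = 0.218 and 0.297). All of these unigenes had been chosen by the study as DEGs of these libraries.

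CL16060.Contig4, assigned to glutathione metabolism, the pathway of the main thiol of plant cells, belongs to a cluster of 7 contigs that moved in opposite directions. It had 0.94, 0.57 and 0.35 FPKM at 30 DAF, 8.10, 6.14 and 3.41 FPKM at 60 DAF, and 261, 335 and 143 FPKM at 90 DAF. CL16060.Contig1, with the same pathway, had 547, 697 and 535 FPKM at 30 DAF, 69.2, 44.9 and 35.2 FPKM at 60 DAF and 0, 0.13 and 0 FPKM at 90 DAF. CL16060.Contig3 had 12.5, 39.5 and 12.4 FPKM, then 77.7, 67.7 and 47.8 FPKM, then 289, 264 and 439 FPKM. Contig4 rose by 2.47 ± 0.39 in Group I and by 5.26 ± 0.39 in Group II. The sum of the cluster was 612, 786 and 597 FPKM at 30 DAF, 176, 128 and 107 FPKM at 60 DAF and 632, 656 and 661 FPKM at 90 DAF. Summed over the cluster, the Group I difference turned to -2.29 (adjusted p = 0.000109), and the cluster as a whole was not absent at 30 DAF.

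**Figure D4:**
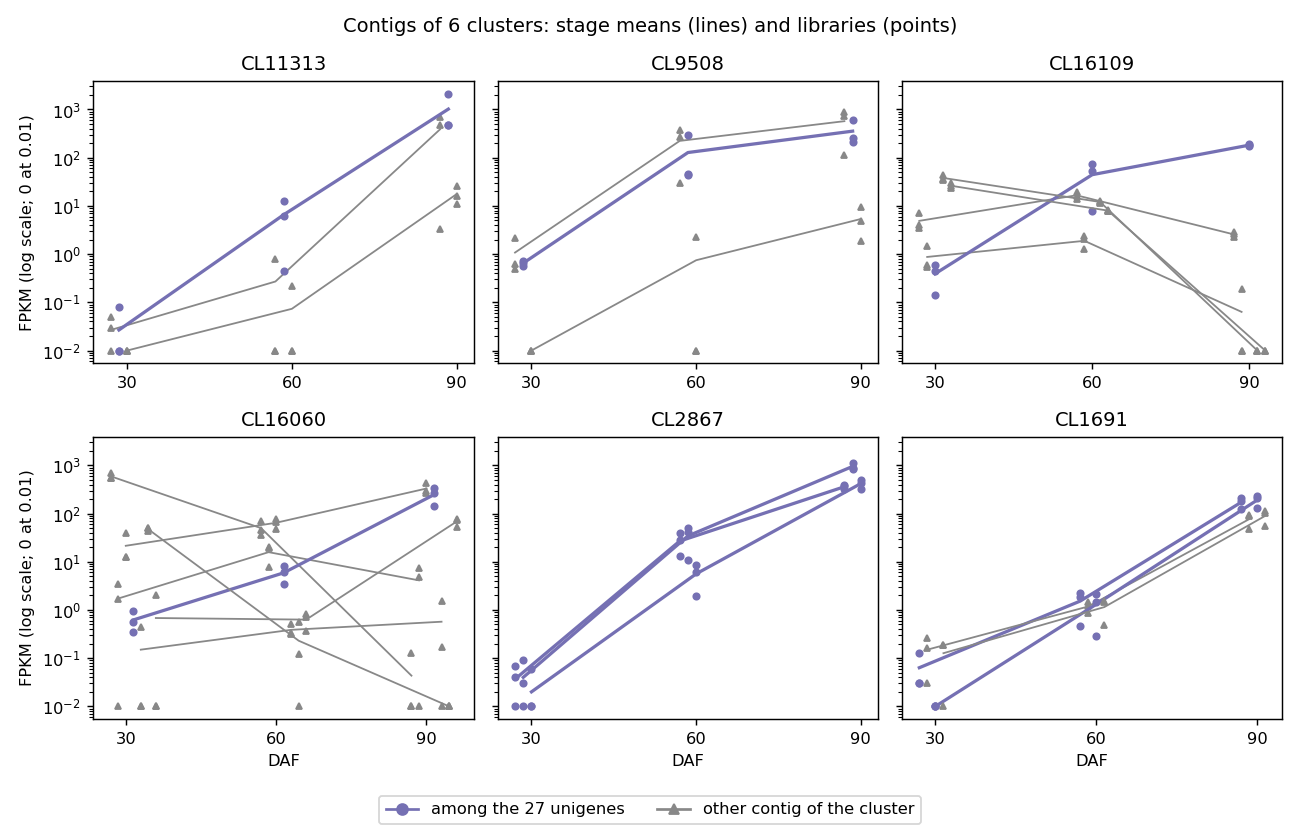
FPKM of the contigs of 6 clusters at 30, 60 and 90 DAF on a log axis with 0 drawn at 0.01, with lines through the stage means and a point per library, in purple for contigs among the 27 and in grey for the others. In CL2867 and CL1691 all contigs rise together, whereas in CL16109 and CL16060 contigs that lead at 30 DAF are at or near 0 at 90 DAF.

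The 2 contigs of cluster CL13700 among the 27 carry different names. CL13700.Contig2 is assigned to endocytosis, the uptake of membrane vesicles, and had 0, 0.18 and 0.17 FPKM at 30 DAF, 36.5, 17.0 and 0.66 FPKM at 60 DAF, and 522, 463 and 767 FPKM at 90 DAF. CL13700.Contig1 is assigned to DNA replication and to base excision, nucleotide excision and mismatch repair, and was listed at 0 in all 30 DAF libraries, at 0, 14.3 and 3.98 FPKM at 60 DAF and at 378, 390 and 499 FPKM at 90 DAF. The libraries of 60 DAF thus spread widely in both. In Group I Contig1 did not pass (adjusted p = 0.125), and Contig2 passed by a small margin (3.90 ± 1.05, adjusted p = 0.0463) and lost the call under 14 of the alternatives (adjusted p up to 0.148). In Group II they rose by 7.03 ± 0.99 and 5.97 ± 1.05. Summed, the cluster had 0, 0.18 and 0.17 FPKM at 30 DAF, 41.9, 32.2 and 4.64 FPKM at 60 DAF and 954, 873 and 1314 FPKM at 90 DAF, and the Group I difference of the sum was 4.98 (adjusted p = 0.00118).

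Unigene19629, assigned to the phagosome, a set of proteins of membrane compartments and the cytoskeleton, came early. It had 0.55, 0.32 and 0.18 FPKM at 30 DAF, 82.6, 97.3 and 59.6 FPKM at 60 DAF, and 357, 393 and 367 FPKM at 90 DAF. With 21.4% of its 90 DAF level at 60 DAF it was well on by that stage, and its rise of 6.56 ± 0.22 in Group I was the largest of the 27 under the fit reported here. In Group II it rose by 2.24 ± 0.22.

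Among the 15 unigenes without an annotation in the tables used here, Unigene34010 stood alone in its timing. It was listed at 0 in all 3 libraries at 30 DAF and in all 3 at 60 DAF, and had 477, 383 and 490 FPKM at 90 DAF. No other of the 27 stayed below 1 FPKM in all 60 DAF libraries. A value of 0 here is an FPKM as listed. Read counts were not analysed, so whether any read came from the transcript cannot be told from it. For this unigene, and in Group I for the other 3 listed at 0 in all 30 DAF libraries, no fold change is given.

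CL9508.Contig2 and Unigene5199 had the highest shares at 60 DAF and the only overlaps of 60 with 90 DAF. Unigene5199 had 0, 0.22 and 0.09 FPKM at 30 DAF, 239, 3.95 and 73.7 FPKM at 60 DAF, and 242, 386 and 218 FPKM at 90 DAF. Its mean at 60 DAF was 37.4% of that at 90 DAF, a value set by replicate 1. In Group I it rose by 6.17 ± 1.18, a call lost without replicate 3 at 30 DAF (6.16, adjusted p = 0.0508), and in Group II it did not pass (2.67 ± 1.18, adjusted p = 0.111), whereas without replicate 1 at 60 DAF it did (3.91, adjusted p = 0.0216).

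CL9508.Contig2 had 0.73, 0.64 and 0.58 FPKM at 30 DAF, 44.6, 294 and 45.7 FPKM at 60 DAF, and 260, 214 and 593 FPKM at 90 DAF. Its cluster mate CL9508.Contig1 had 0.49, 0.62 and 2.12 FPKM at 30 DAF, 368, 29.7 and 271 FPKM at 60 DAF and 868, 733 and 116 FPKM at 90 DAF, low in the libraries where Contig2 was high. The cluster sum was 1.22, 1.26 and 2.70 FPKM at 30 DAF, 413, 326 and 317 FPKM at 60 DAF and 1133, 949 and 718 FPKM at 90 DAF, without overlap between the stages. Contig2 rose by 6.21 ± 0.69 in Group I and did not pass in Group II (1.92 ± 0.69, adjusted p = 0.058), while the sum did (1.39, adjusted p = 0.00223). Of the 13 clusters it had the second highest share of its 90 DAF level at 60 DAF, 37.7%, after the 44.8% of CL16109.

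The 2 contigs of cluster CL794 were late. CL794.Contig7 was listed at 0 in all 30 DAF libraries and had 6.79, 6.49 and 0.81 FPKM at 60 DAF and 284, 332 and 333 FPKM at 90 DAF. CL794.Contig9 had 0, 0 and 0.02 FPKM, then 3.66, 6.26 and 0.09 FPKM, then 213, 223 and 169 FPKM. Contig8 of the same cluster missed the limit at 90 DAF and had 3.0, 1.81 and 0.25 FPKM at 60 DAF, so replicate 3 was the lowest 60 DAF library in all 3 contigs. Contig9 did not pass in Group I (2.33 ± 0.75, adjusted p = 0.0832) and did without replicate 3 at 60 DAF (3.39, adjusted p = 0.000416). The 16 contigs of the cluster summed to 7.90 to 11.01 FPKM at 30 DAF, from contigs outside the 27, and on the sum the Group I difference was 0.76 (adjusted p = 0.141).

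The other unannotated unigenes, named here to complete the 27, ranged from steady to steep. Unigene34302 was the most even at 60 DAF, and had 0.03, 0 and 0.03 FPKM at 30 DAF, 4.49, 4.32 and 4.96 FPKM at 60 DAF, and 124, 107 and 112 FPKM at 90 DAF. CL134.Contig3 had 0.1, 0.16 and 0.09 FPKM at 30 DAF, 10.1, 12.2 and 7.03 FPKM at 60 DAF and 477, 536 and 560 FPKM at 90 DAF, and held 95.8% of its cluster at that stage. Unigene12458 had 0.09, 0.47 and 0.14 FPKM at 30 DAF, 21.5, 14.6 and 20.8 FPKM at 60 DAF and 181, 257 and 145 FPKM at 90 DAF. In these 3 the stages did not overlap and the 60 DAF libraries lay within a factor of 2 of each other.

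Unigene9728 reached 17.6% of its 90 DAF level at 60 DAF, with 0.29, 0.3 and 0.18 FPKM at 30 DAF, 28.9, 82.9 and 14 FPKM at 60 DAF and 195, 296 and 224 FPKM at 90 DAF. CL7176.Contig2 had 0.73, 0.49 and 0.23 FPKM at 30 DAF, 17.7, 21.9 and 13.1 FPKM at 60 DAF and 248, 303 and 335 FPKM at 90 DAF. CL7169.Contig4 had 0.81, 0.52 and 0.57 FPKM at 30 DAF, 13.9, 16.6 and 6.66 FPKM at 60 DAF and 143, 344 and 175 FPKM at 90 DAF. These 3 had over 5% of the 90 DAF level at 60 DAF, as did CL3076.Contig1, with 0.07, 0.04 and 0.41 FPKM at 30 DAF, 7.31, 13.2 and 2.95 FPKM at 60 DAF and 103, 106 and 136 FPKM at 90 DAF. Unigene16840 had 0.84, 0.22 and 0.05 FPKM at 30 DAF, 3.90, 8.25 and 2.54 FPKM at 60 DAF and 133, 162 and 221 FPKM at 90 DAF. Unigene44290 had 0.3, 0.44 and 0.12 FPKM at 30 DAF, 3.71, 2.19 and 1.34 FPKM at 60 DAF and 243, 224 and 197 FPKM at 90 DAF, a share of 1.09%. Unigene15739 was hardly above its 30 DAF level at 60 DAF: it had 0.98, 0.61 and 0.35 FPKM at 30 DAF, 2.28, 1.65 and 0.49 FPKM at 60 DAF and 163, 105 and 216 FPKM at 90 DAF. It did not pass in Group I (0.69 ± 0.42, adjusted p = 0.351) and rose by 6.42 ± 0.42 in Group II.

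The contigs that share a cluster with the 27 but did not meet the limits are described here. They are no independent view, because their clusters were picked by the same 30 and 90 DAF values and reads can pass between similar contigs. There are 40 such contigs in 12 clusters, of which 30 were tested. In Group III 19 of the 30 were higher and 5 were lower at 90 DAF, with a median log2 difference of 2.78, where 13.7% of all tested unigenes were higher and 16.5% were lower. In Group II 18 were higher and 5 were lower, beside 18.2% and 9.41%, and in Group I 8 were higher and 4 were lower, beside 1.72% and 6.33%. The sum of the cluster stayed below 1 FPKM on average at 30 DAF in 9 of the 13 clusters. In 4 clusters, CL16060, CL16109, CL794 and CL9508, it did not, with mean sums of 665, 70.5, 9.41 and 1.73 FPKM. In CL16060, CL16109 and CL794 the chosen contigs were thus nearly silent at 30 DAF where their cluster was not. CL9508 was only just above 1 FPKM at 30 DAF, beside a mean sum of 933 FPKM at 90 DAF. At 90 DAF the chosen contigs held at least 90% of the cluster sum in 7 of 13 clusters, and the least was 37.9% in CL16060.

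The 60 DAF values of the 27 differed between the 3 libraries in 1 direction. Replicate 3 was the lowest library in 21 of the 27 (77.8%), and in 36.2% of all tested unigenes. Counted over the 22 clusters or single unigenes, it was the lowest in 18. The median log2 ratio of replicate 3 to the mean of the other 2 libraries, on FPKM + 0.5, was -1.32 over the 27, -0.07 over the other unigenes that were higher at 90 than at 30 DAF and -0.08 over all tested. Replicate 3 was also the lowest in 70.9% of the 636 unigenes with at least 100 FPKM in all 90 DAF libraries that were present at 30 DAF, with a smaller ratio, -0.30, and in 47.5% of the 59 unigenes silent at 30 DAF with 20 to under 100 FPKM at 90 DAF, with -0.40. With median-of-ratios scaling and with quantile normalization replicate 3 was again the lowest in 21 of the 27. Without replicate 3, 25 of the 27 had at least 1 FPKM in both remaining 60 DAF libraries, only 1 was mixed, and the median share of the 90 DAF level was 3.53%.

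**Figure D5:**
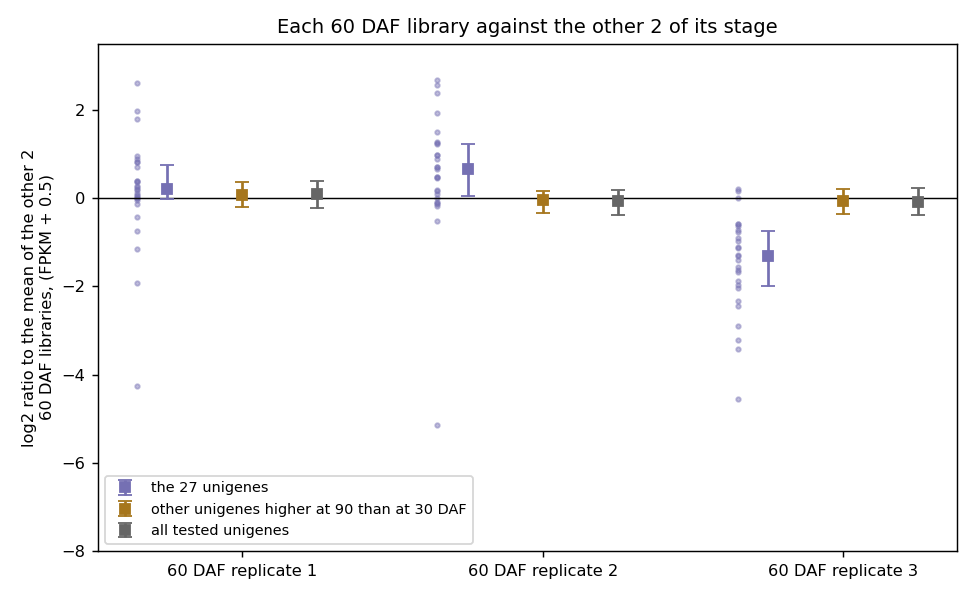
Log2 ratio of each 60 DAF library to the mean of the other 2, on FPKM + 0.5, as medians (squares) with quartiles (bars) for the 27 unigenes, for the other unigenes higher at 90 than at 30 DAF and for all tested unigenes, with a point for each of the 27. The median of replicate 3 is -1.32 for the 27 and -0.07 and -0.08 for the other 2 sets.

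The 90 DAF libraries were closer to each other in these unigenes, but the rule asked for at least 100 FPKM in each of them. The highest library was less than 2 times the lowest in 22 of the 27, and the median of that ratio was 1.35. The largest was 4.48, in CL11313.Contig2, where Contig1 of the same cluster differed the other way. Replicate 1 was the lowest 90 DAF library in 14 of the 27. These counts are a description, and no share over all unigenes was taken for them. Across all tested unigenes the pairs of 90 DAF libraries correlated less (r of 0.814 to 0.856) than those of 60 DAF (0.927 to 0.936).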

How the data were processed

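RNA from whole ‘Hangshao’ seeds at 30, 60 and 90 DAF was sequenced in 3 libraries per stage. The authors filtered the reads, assembled them with Trinity, clustered the transcripts with Tgicl, mapped each library to the unigenes with Bowtie2 and estimated expression with RSEM, and the values they deposited are FPKM. Tool versions were not given in the sources used here, and read counts were not analysed here. FPKM divides out transcript length and library size, and RSEM can share reads between similar contigs. The deposited table has 125694 lines, of which 9 carry no unigene and were left out. Columns were assigned by the names of the samples.

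Unigenes were chosen by the limits given in the text. The unigenes, lists and tests were chosen with earlier results of these data known. From the FPKM, log2(FPKM + 0.5) was fitted with limma 3.58.1 (R 4.3.3) with a term per stage over the 9 libraries, a variance trend and empirical Bayes moderation. A change on this scale understates that of low unigenes. The fit was tested on simulated data for Group I with 55192 unigenes, of which 100 were changed by 1.5 and 100 by 3 (log2). It recovered 25% and 73% of these, and 11 unchanged unigenes passed. Far more unigenes passed in the real Group I (947 higher and 3496 lower), so these rates need not hold for the real fit. The p-values measure only the spread between these libraries, which may be technical.

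Named in the text were the annotated unigenes, the most abundant of each class of timing, the largest clusters, the neighbours of each limit, the extremes of the share at 60 DAF and, from each list, up to 3 unigenes that passed in Groups II and III; the rest of the 27 were named to complete them, and of the lists only a part was printed, chosen after values were seen. Relative depth was the most frequent ratio of low FPKM values (0.1 to 1) of single unigenes to replicate 1 at 30 DAF, in log2 steps of 0.05. Alternatives were other added values, filters and scalings, only 2 stages, the replicate number as a block, no trend, robust moderation, cluster sums, each library left out and an adjusted p of at most 0.01. No sequences of the 27 unigenes were used here. Python 3.11.15, pandas 2.3.3, numpy 2.4.6 and matplotlib 3.10.9 were used for tables and figures.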

Additional observations from a re-analysis of the deposited data

How the results depend on the processing

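The 27 unigenes became 19 with a limit of 0.5 FPKM at 30 DAF, 14 with at least 200 FPKM at 90 DAF, 25 with median-of-ratios scaling (23 of the 27 among them), 24 with quantile normalization (23 of the 27) and 20 when the limits were applied to cluster sums, and 28 to 33 when 1 library at 30 or 90 DAF was left out. At 60 DAF, leaving out 1 library gave 18 to 25 unigenes with at least 1 FPKM in all remaining libraries and 1 to 8 with a mixed result, the extremes of 25 and 1 without replicate 3. The median share of the 90 DAF level at 60 DAF was 2.85%, 4.47% with median-of-ratios scaling, 3.94% on cluster sums and 2.16% to 3.53% without 1 library. In Group I 16 passed at an adjusted p of at most 0.01 and 17 to 24 without 1 library, in Group II 24 to 26 and in Group III 26 or 27, where a library of 90 DAF left out took Unigene34010 below the filter. Replicate numbers did not pair the libraries (r of same-numbered libraries -0.16 to 0.13), and with the replicate block 20, 25 and 27 passed in Groups I, II and III. Of the 22 that passed in Group I, 14 passed under all alternatives run. Of the 25 in Group II, 24 passed under all alternatives in which they were tested. The chosen 30 and 90 DAF values entered these fits, so the stability of the calls was partly set by the rule. Unigene34010 is among these 24 and was not tested where a library of 90 DAF was left out. CL16060.Contig4 turned from a rise to a fall of -2.29 in Group I on cluster sums, by the contigs that were added. The replicate 3 comparisons with other scalings and on cluster sums, and the lists under all settings, were chosen after seeing the data. The added 0.5 and depth limit all changes of unigenes near 0.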
